A study of Mus musculus with 2 samples.

Results

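The amino acid transporter genes of mouse liver were compared between L-Lpcat3 KO mice, which carry Lpcat3fl/fl with Albumin-Cre, and Lpcat3fl/fl control mice, both kept on a western diet. Members were all probe sets annotated to a single gene whose symbol begins with Slc1a, Slc3a, Slc6a, Slc7a, Slc36a, Slc38a or Slc43a, which gave 125 probe sets of 63 genes among the 18193 genes of the array. Of the 63 genes, 60 are named as members of these carrier families, and 3 (Slc36a1os, Slc6a19os and Slc7a6os) are named for lying opposite one. Lpcat3 encodes an enzyme that places polyunsaturated fatty acids into membrane phospholipids, and the series asked how its loss from the liver alters gene expression.

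Both groups were male, 16 weeks old, on a C57BL/6 background, homozygous for the floxed allele and had eaten the western diet for the last 9 weeks, starting at 7 weeks of age. Livers were taken after a 6 hr fast, and RNA from 5 mice per genotype was pooled onto 1 Affymetrix whole-genome mouse array per genotype. Albumin-Cre acts in hepatocytes, so the other cells of the liver keep Lpcat3. Each pool is a single sample, so no difference below has a replicate check, no test between genotypes was possible, and the number of arrays limits the precision. In whole liver, fewer cells of a type and less RNA per cell cannot be told apart.

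Amino acids cross membranes through solute carriers. Some take up amino acids together with sodium (Slc1a, Slc6a and Slc38a). Part of the Slc7a family exchanges one amino acid for another as a light chain bound to an Slc3a heavy chain. Others couple amino acids to protons (Slc36a) or let neutral amino acids pass by facilitated diffusion (Slc43a). In the liver they feed urea synthesis, glutamine turnover, gluconeogenesis and the making of plasma proteins. Shortage of amino acids raises several carriers through the transcription factor ATF4, which binds composite C/EBP-ATF elements, and carriers on the lysosome report amino acids to the kinase complex mTORC1.

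The values are MAS5 signal intensities. Signals below the median of all values on both arrays, 86.6, were raised to that floor. For each gene the probe set with the highest mean log2 signal stood for it, and the gene counted as measured if this probe set was at or above the floor on 1 array or both, as in 12290 genes. With 1 array below the floor, a ratio is only a bound. Log2 ratios divide L-Lpcat3 KO by control, and signals of different probe sets are not levels that can be set against each other. The log2 ratios of different probe sets for the same gene had a pooled SD of 0.29 over 4476 genes and 0.40 over 11 member genes; it describes disagreement between probe sets, not the spread between mice. Lpcat3 itself had a signal of 2198 in L-Lpcat3 KO liver and 5173 in control liver, or 42.5% of control, on its single probe set. Its position with respect to the floxed part is not stated in the labels or methods, so this is a limited check of the labels. Hepatocyte markers such as Alb (33219 in L-Lpcat3 KO liver and 32117 in control liver) were far above the floor, with a summed signal over 10 genes of 266374 in L-Lpcat3 KO liver and 289112 in control liver and a median log2 ratio of -0.14.

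Few amino acid carriers of the liver reached a fold threshold between the genotypes. Of the 63 member genes 40 were measured, and 34 of these reached the floor on both arrays. Slc1a5 alone passed 2-fold upward in the L-Lpcat3 KO pool, as 2.7% of all measured genes did, and 0 members passed 2-fold downward, as 0.7% did. At 1.5-fold, 2 members were higher (Slc1a5 and Slc36a4), against 9.07% of all measured genes, and 1 was lower (Slc3a1), against 3.83%. The members' shares were 2.5% and 0% at 2-fold and 5.0% and 2.5% at 1.5-fold, close to or below those of the array as a whole. The median log2 ratio of the measured members was -0.11, with 25 of 40 below 0, and that of all measured genes was 0.01, with 48.8% below 0. Leaving out the opposite-strand genes left the members' median at -0.11 over 39 genes. The members' median was -0.04 with each gene taken as the mean of its probe sets and -0.22 with the floor at the 75th percentile.

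**Figure D1:**
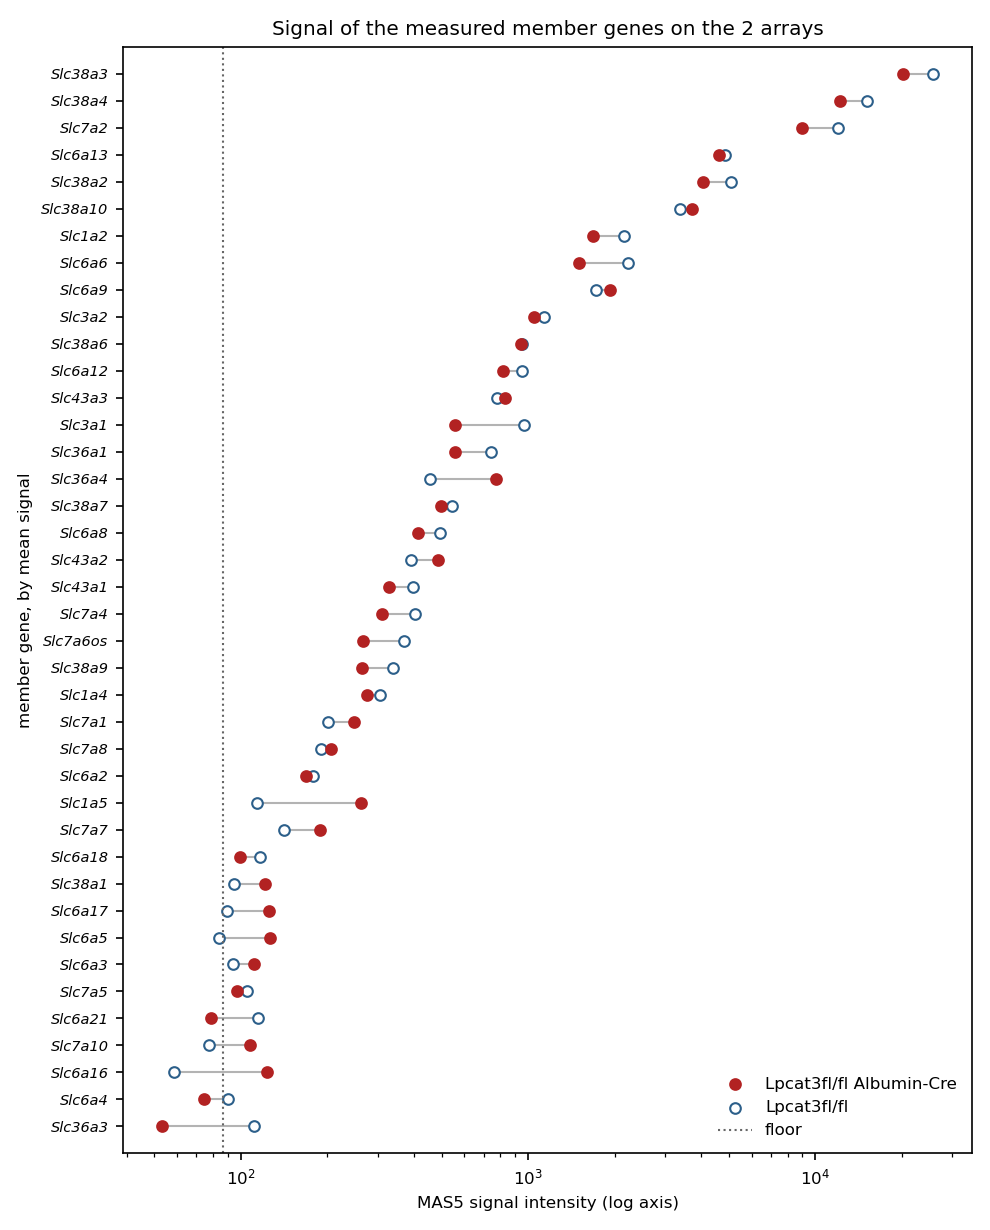
MAS5 signal intensity (horizontal log axis) of the 40 measured member genes, sorted by mean signal, in L-Lpcat3 KO liver (filled red points) and control liver (open blue points), 1 pooled array each, with the floor of 86.6 as a dotted line. The widest gaps above the floor are those of Slc1a5 (262 in L-Lpcat3 KO liver and 114 in control liver), Slc3a1 (558 in L-Lpcat3 KO liver and 966 in control liver) and Slc36a4 (775 in L-Lpcat3 KO liver and 456 in control liver), while Slc38a3, Slc38a4 and Slc7a2 at the top all have the L-Lpcat3 KO point to the left.

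Slc1a5 encodes ASCT2, a sodium-dependent exchanger of glutamine and other neutral amino acids. Its representative probe set had a signal of 262 in L-Lpcat3 KO liver and 114 in control liver, a log2 ratio of 1.20 or 2.30-fold. The control value lay only a little above the floor, and a second Slc1a5 probe set, at 71.6 in L-Lpcat3 KO liver and 51.8 in control liver, was below it on both arrays and gave no order. The higher call therefore rests on 1 probe set of low signal.

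Slc36a4, a high-affinity carrier of proline and tryptophan, had a signal of 775 in L-Lpcat3 KO liver and 456 in control liver, a log2 ratio of 0.76 or 1.70-fold. Slc3a1 encodes rBAT, the heavy chain that carries the cystine and dibasic amino acid exchanger to the cell surface in kidney and gut. Its signal was 558 in L-Lpcat3 KO liver and 966 in control liver, 57.7% of control, with a log2 ratio of -0.79. Both genes have a single measured probe set, so neither value could be set against another on the same array. A light chain partner of rBAT, Slc7a9, was below the floor in both livers, at 38.4 in L-Lpcat3 KO liver and 30.7 in control liver.

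The stretches just upstream of these 2 genes are shown because these are the members past 1.5-fold for which the promoter table holds a window. Each line gives the 100 bases before the annotated start on the gene's own strand (RefSeq, GRCm38.p6), with CG dinucleotides in capitals. The Slc36a4 stretch lies at chr9:15709638-15709737 on the plus strand and the Slc3a1 stretch at chr17:85028247-85028346 on the plus strand.
Slc36a4: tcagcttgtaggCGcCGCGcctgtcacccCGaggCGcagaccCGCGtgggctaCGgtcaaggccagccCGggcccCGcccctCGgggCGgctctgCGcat
Slc3a1: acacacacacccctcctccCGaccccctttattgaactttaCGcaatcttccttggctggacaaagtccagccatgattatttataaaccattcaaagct
Slc36a4 has 13 CG dinucleotides and 76% G and C in this stretch, and Slc3a1 has 2 and 45%. The median over the 67 member windows in the promoter table was 4 CG, and over all 32851 windows it was 3. The composition is a description of these letters and was not related to the ratios.

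The sodium-coupled Slc38a carriers move glutamine, alanine and other small neutral amino acids. Slc38a3 (SNAT3), the glutamine carrier of hepatocytes around the central vein, had a signal of 20138 in L-Lpcat3 KO liver and 25765 in control liver, a log2 ratio of -0.36. Its second probe set had 434 in L-Lpcat3 KO liver and 610.0 in control liver, a log2 ratio of -0.49. Both probe sets were thus lower in the L-Lpcat3 KO pool, by less than 1.5-fold.

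Slc38a4 (SNAT4), a liver carrier of neutral and cationic amino acids, had 12183 in L-Lpcat3 KO liver and 15072 in control liver on one probe set, and 11805 in L-Lpcat3 KO liver and 12851 in control liver on the other. The log2 ratios were -0.31 and -0.12. Slc38a2 (SNAT2), which is raised by amino acid shortage in many cells, had 4069 in L-Lpcat3 KO liver and 5085 in control liver, a log2 ratio of -0.32. Its other probe sets gave 0.20 and -0.23, so they did not share a direction. Slc38a1 (SNAT1) had 121 in L-Lpcat3 KO liver and 94.4 in control liver, a log2 ratio of 0.36, close to the floor, and its other measured probe set, with 131 in L-Lpcat3 KO liver and 64.3 in control liver, was at least 1.51-fold higher. Slc38a1, Slc38a2 and Slc38a4 follow one another on chromosome 15, and their log2 ratios in that order were 0.36, -0.32 and -0.31.

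Of the 9 Slc38a genes 8 were measured, 6 of them below 0, with a family median log2 ratio of -0.22. Slc38a10, a glutamine and alanine carrier, was measured by 5 probe sets, of which the representative one had 3708 in L-Lpcat3 KO liver and 3382 in control liver, and their log2 ratios lay between -0.15 and 0.52. Slc38a6 had a log2 ratio of -0.02, and Slc38a7, a lysosomal glutamine and asparagine exporter, -0.13. Slc38a9, the lysosomal arginine sensor that signals to mTORC1, had 263 in L-Lpcat3 KO liver and 338 in control liver, a log2 ratio of -0.36. Its 7 measured probe sets ran from -0.75, a bound, to 0.47, so the array gives no single direction for this gene. Slc38a5 (SNAT5), a glutamine carrier of the same type as SNAT3, was below the floor on both arrays.

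Slc7a2 is the cationic amino acid transporter of hepatocytes, which brings in arginine, lysine and ornithine. It had 8992 in L-Lpcat3 KO liver and 12039 in control liver, a log2 ratio of -0.42. Its other probe sets gave -0.31 (1716 in L-Lpcat3 KO liver and 2133 in control liver), 0.17 (706 in L-Lpcat3 KO liver and 629.9 in control liver) and, near the floor, 0.08. Averaged over its probe sets, the log2 ratio of Slc7a2 was -0.12. The related Slc7a1, which most other cells use for arginine, had 247 in L-Lpcat3 KO liver and 200.5 in control liver, a log2 ratio of 0.30, and its other measured probe set, with 109 in L-Lpcat3 KO liver and 81.0, below the floor, in control liver, was at least 1.26-fold higher.

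Slc3a2, the CD98 heavy chain that the LAT and y+LAT exchangers need, had 1051 in L-Lpcat3 KO liver and 1132 in control liver, a log2 ratio of -0.11. Its light chains carry large neutral amino acids or exchange them for cationic ones. Slc7a5 (LAT1) had 96.8 in L-Lpcat3 KO liver and 105 in control liver, Slc7a8 (LAT2) had 205 in L-Lpcat3 KO liver and 190.3 in control liver, and Slc7a7 had 189 in L-Lpcat3 KO liver and 141 in control liver. Their log2 ratios were -0.12, 0.11 and 0.42, and a second Slc7a7 probe set, with 82.1, below the floor, in L-Lpcat3 KO liver and 98.9 in control liver, was at least 1.14-fold lower. Slc7a11 (xCT), the cystine importer that supplies glutathione synthesis, was below the floor on both arrays, at 58.8 in L-Lpcat3 KO liver and 47.3 in control liver, as were Slc7a6 and Slc7a9. Slc7a4, a Slc7a member with no settled substrate, had probe sets of opposite direction: 310 in L-Lpcat3 KO liver and 403 in control liver on one, and 162 in L-Lpcat3 KO liver and 90.2 in control liver on the other, with log2 ratios of -0.38 and 0.85.

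The facilitated carriers of branched-chain and aromatic amino acids did not share a direction. Slc43a1 (LAT3) had 327 in L-Lpcat3 KO liver and 396 in control liver, a log2 ratio of -0.27, and Slc43a2 (LAT4) had 484 in L-Lpcat3 KO liver and 392 in control liver, a log2 ratio of 0.30. A second Slc43a2 probe set, with 119 in L-Lpcat3 KO liver and 83.6, below the floor, in control liver, was at least 1.38-fold higher. Slc43a3, which carries nucleobases and not amino acids, had 830 in L-Lpcat3 KO liver and 781 in control liver, a log2 ratio of 0.09. Slc36a1, the proton-coupled exporter of small amino acids from the lysosome, had 557 in L-Lpcat3 KO liver and 746 in control liver, a log2 ratio of -0.42. Slc36a1 and Slc36a4, both measured by a single probe set, thus lay on opposite sides of 0.

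In the Slc1a family, Slc1a2 (GLT-1) takes up glutamate into hepatocytes around the central vein. It had 1687 in L-Lpcat3 KO liver and 2152 in control liver, a log2 ratio of -0.35, and its other measured probe sets gave -0.12 and -0.32, so all of them were lower. Slc1a4 (ASCT1), a carrier of alanine, serine and cysteine, had 276 in L-Lpcat3 KO liver and 304 in control liver, a log2 ratio of -0.14. Its second measured probe set, with 108 in L-Lpcat3 KO liver and 30.8, below the floor, in control liver, was at least 1.24-fold higher, so the direction of Slc1a4 depends on the probe set. The other Slc1a genes (Slc1a1, Slc1a3, Slc1a6 and Slc1a7) were below the floor on both arrays.

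The Slc6a family carries taurine, glycine, betaine, creatine, GABA and, in neurons, the monoamines. Slc6a6, the taurine transporter, had 1503 in L-Lpcat3 KO liver and 2230 in control liver, a log2 ratio of -0.57 and 1.48-fold, just short of 1.5-fold. Its second probe set had 499 in L-Lpcat3 KO liver and 362 in control liver, a log2 ratio of 0.46 in the other direction, and the average of both was -0.05. The direction of Slc6a6 therefore depends on the probe set. The creatine transporter Slc6a8 was split in the same way, with 414 in L-Lpcat3 KO liver and 493 in control liver on one probe set and 206 in L-Lpcat3 KO liver and 108 in control liver on the other (log2 ratios of -0.25 and 0.93).

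Slc6a13 (GAT2), a GABA and taurine carrier of periportal hepatocytes, had 4629 in L-Lpcat3 KO liver and 4853 in control liver, a log2 ratio of -0.07. Slc6a12, the betaine carrier that is its annotated neighbour on chromosome 6, had a log2 ratio of -0.22. Slc6a9 (GlyT1), a glycine importer, had 1931 in L-Lpcat3 KO liver and 1729 in control liver, a log2 ratio of 0.16, and -0.05 on its second probe set. None of these differed by 1.5-fold. The remaining measured Slc6a genes, which include the monoamine carriers Slc6a2, Slc6a3 and Slc6a4, had signals between 58.3 and 179 and log2 ratios or bounds between -0.41 and 0.54.

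**Figure D2:**
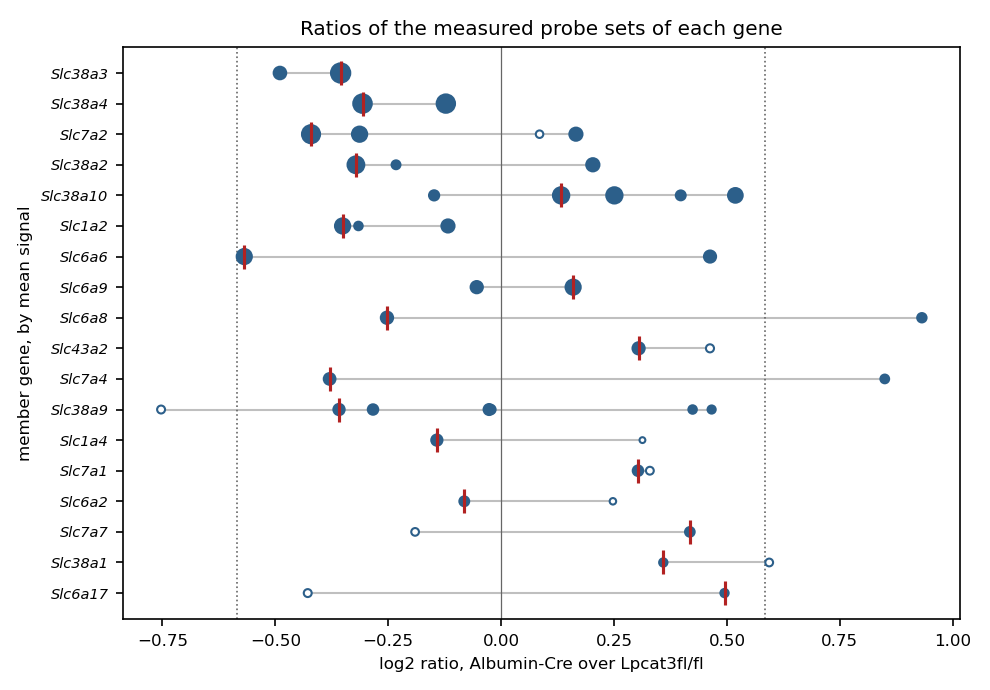
Log2 ratio between L-Lpcat3 KO and control arrays (horizontal axis) of each measured probe set of the 18 member genes with 2 or more measured probe sets. Point area grows with mean signal, open points have 1 side below the floor, red ticks mark the representative probe set and dotted lines mark 1.5-fold. Probe sets of 12 of the 18 genes lie on both sides of 0, and in Slc38a9, Slc6a8 and Slc7a4 one of them is past 1.5-fold.

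Most members with bright probe sets had log2 ratios below 0. Of the 10 members with a mean signal of at least 1000, 8 had a log2 ratio below 0, with a median of -0.31. Among all 4258 genes of such signal, 57.0% were below 0 and the median was -0.04. From 300 to 1000, 9 of 12 members were below 0 with a median of -0.23, against 49.4% and 0.00 for 3764 genes. Below 300, 8 of 18 members were below 0 with a median of 0.17, against 40.0% and 0.10 for 4268 genes. The 8 lower members of the brightest class were Slc38a3, Slc38a4, Slc7a2, Slc38a2, Slc6a13, Slc1a2, Slc6a6 and Slc3a2, and none of them passed 1.5-fold. Slc7a2, Slc38a2 and Slc6a6 count as lower by their representative probe set, but each has another measured probe set above 0. Slc7a2 and Slc38a2 also have a further probe set below 0, at -0.31 and -0.23. With each gene taken as the mean of its probe sets, 8 of these 10 were still below 0, with a median of -0.11. The median of the same 10 was -0.24 after quantile normalization and -0.25 after lowess centring. The matching values for all genes of such signal were not computed.

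**Figure D3:**
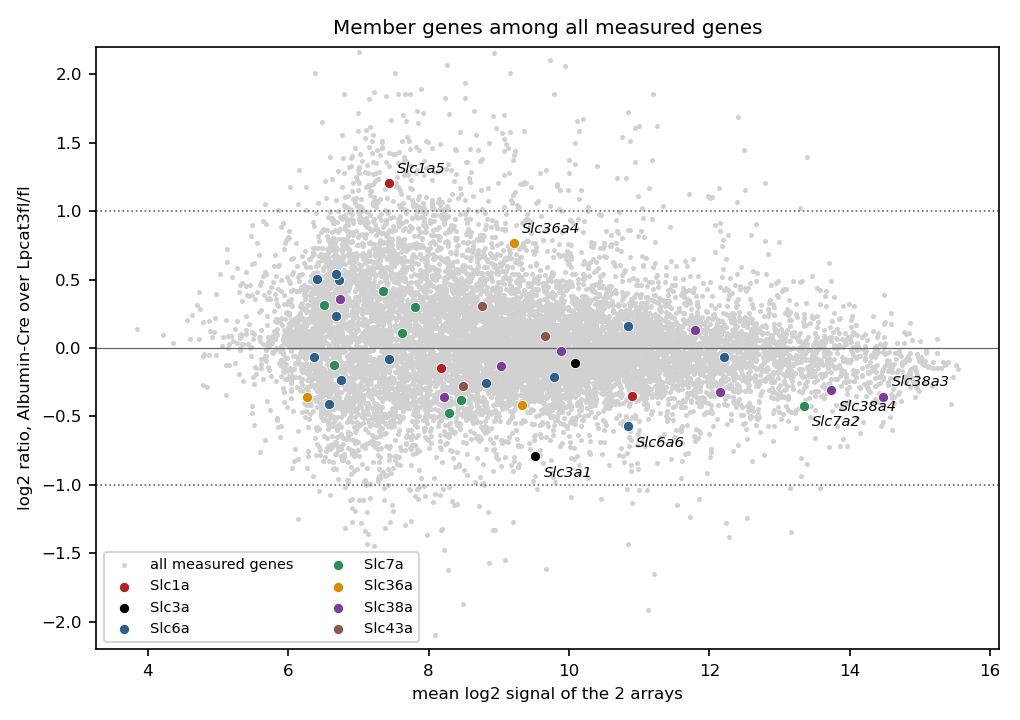
Log2 ratio between L-Lpcat3 KO and control arrays (vertical axis, limited to 2.2 in either direction, which leaves out 15 genes) against mean log2 signal of both arrays (horizontal axis) for all 12290 measured genes (grey) and the 40 measured members (coloured by family), with dotted lines at 2-fold. Slc1a5, at a log2 ratio of 1.20, is the only member past 2-fold, and 8 of the 10 members above a signal of 1000 lie below 0.

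Markers of several other liver cell types were higher in the L-Lpcat3 KO pool, but those of cholangiocytes were not. Of the cholangiocyte markers, Epcam had a log2 ratio of -0.09 and Sox9 a bound of -0.12. Krt7, Krt19 and Cftr were below the floor on both arrays. All 13 macrophage markers had a positive log2 ratio, 12 of them at least 1.5-fold higher, with a summed signal of 39609 in L-Lpcat3 KO liver and 18710 in control liver and a median log2 ratio of 1.17. All 6 measured B cell markers were at least 2-fold higher (summed signal 4843 in L-Lpcat3 KO liver and 1041 in control liver). Cd79a, Cd79b and Ms4a1 were below the floor in control liver, so their 3 ratios are bounds. The 2 measured probe sets of Ms4a1 ran from 0.30 to 2.17 on the log2 scale, and the 7 of Ighm from 1.03 to 2.58. The 2-fold mark was also passed by 5 of 9 stellate cell and matrix markers (14895 in L-Lpcat3 KO liver and 7463 in control liver). It was passed by 3 of 7 endothelial markers (7098 in L-Lpcat3 KO liver and 5399 in control liver). Among all measured genes, 2.7% passed 2-fold upward and 9.07% passed 1.5-fold upward. Both measured adipocyte markers, Adipoq and Retn, were at least 2-fold higher, with 314 and 218 in L-Lpcat3 KO liver. In control liver both were below the floor (38.9 and 64.4), so their ratios are bounds. Lep was below the floor on both arrays. All 4 measured neutrophil markers and all 3 measured T and NK cell markers had positive log2 ratios, with medians of 0.35 and 0.60. Of these, 3 neutrophil and 2 T and NK cell ratios are bounds, and Cd3d, Cd3g, Cd4 and Cd8a were below the floor on both arrays. Pericentral hepatocyte markers had a median log2 ratio of -0.18 over 10 genes (115420 in L-Lpcat3 KO liver and 130928 in control liver), with Cyp1a2 at -0.81 and Glul, the glutamine synthetase of the same cells, at 0.23. Periportal markers had a median of -0.20 over 7 genes (107012 in L-Lpcat3 KO liver and 119169 in control liver). The part of these shifts in the higher Slc1a5 and Slc36a4 and in the lower bright carriers was not tested.

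Most genes of the amino acid response had a positive log2 ratio. Of the 28 measured genes of an ATF4 list, 19 had a positive log2 ratio, 8 were at least 1.5-fold higher and 0 were 1.5-fold lower, with a median of 0.16. Positive log2 ratios were also found in 6295 of all 12290 measured genes, and in 2561 of the 4268 with a mean signal below 300. The 8 genes are 28.6% of the list, against 9.07% of all measured genes and 16.0% of those with a mean signal below 300. Of the 8, Trib3 had a second measured probe set at -0.10. Phgdh, the first enzyme of serine synthesis, had 317 in L-Lpcat3 KO liver and 70.3, below the floor, in control liver, at least 3.66-fold higher on that probe set, while its 3 measured probe sets ran from 0.25 to 1.87 on the log2 scale. Fgf21, a hepatokine of nutrient stress, had 501 in L-Lpcat3 KO liver and 215 in control liver, a log2 ratio of 1.22. Aldh18a1, of proline synthesis, and Mthfd2, of mitochondrial folate metabolism, followed with log2 ratios of 0.91 and 0.88. Asns, the asparagine synthetase, had 167 in L-Lpcat3 KO liver and 124 in control liver, a log2 ratio of 0.42. Other genes of the list had negative log2 ratios, with -0.11 for Chac1, -0.16 for Ddit3, -0.43 for Sesn2 and -0.45 for Cth. Atf4 itself had a log2 ratio of 0.52 on its representative probe set and -0.13 on the other.

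The carriers that amino acid shortage is known to raise did not share one direction. Slc1a5 was higher, and Slc3a2 had -0.11, Slc7a5 -0.12 and Slc7a1 0.30 on the log2 scale. The probe sets of Slc38a2 (-0.32, 0.20 and -0.23) and of Slc1a4 disagreed, and Slc7a11 was not measured. In the 300-base windows of the promoter table, from 250 bases before to 50 after the start, the core of the C/EBP-ATF element (TGATGNAA, searched on both strands) was present in 4 of the 46 member genes with a window, or 8.7%, and in 4.51% of all 27025 genes. A gene counts if any of its windows matches, and genes can have several windows. By window, this core was in 7.46% of the 67 member windows and in 3.97% of all 32851. No member held both this motif and the antioxidant element searched below. The table holds no window for Slc1a5, Slc38a3 or Slc7a2.

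The matching stretches are shown because they put the searched letters beside each gene's value. They run 5′ to 3′ on the gene's strand (RefSeq, GRCm38.p6), with the matches in capitals: Slc1a4 at chr11:20332710-20332737 (minus), Slc6a21 at chr7:45282825-45282872 (plus), Slc7a11 at chr3:50443633-50443699 (minus) and Slc7a7 at chr14:54417938-54418105 (minus).
Slc1a4: cctccagcgtgcctcctgcgTTGCATCA
Slc6a21: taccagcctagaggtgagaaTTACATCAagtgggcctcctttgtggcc
Slc7a11: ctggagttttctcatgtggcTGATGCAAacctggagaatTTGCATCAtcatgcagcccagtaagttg
Slc7a7: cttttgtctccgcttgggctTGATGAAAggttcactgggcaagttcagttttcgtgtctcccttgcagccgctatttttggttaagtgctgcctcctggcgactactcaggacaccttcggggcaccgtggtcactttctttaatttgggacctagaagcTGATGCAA
Slc7a11 holds a pair of matches in opposite orientation, at positions -66 and -47 from the start, in a promoter known in mouse for its amino acid response elements. Its signal was below the floor in both livers. Slc1a4 had probe sets of opposite direction, as did Slc7a7, whose representative one gave 0.42. Slc6a21 had 79.0, below the floor, in L-Lpcat3 KO liver and 115 in control liver. A match describes letters and is not a bound site. The antioxidant response element core (TGACNNNGC, searched on both strands) was in 10 of the 46 members, or 21.7%. It was in 14.0% of all genes in the table. By window, the shares were 17.9% for members and 12.4% for all. The log2 ratios of the 7 measured genes among the 10 ran from -0.42 for Slc36a1 to at least 0.50 for Slc6a16.

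On their representative probe sets, the genes of lysosomal amino acid sensing stayed within 1.5-fold. All 31 measured genes of the mTORC1 list did so, with a median log2 ratio of 0.00 and a range from -0.51 for Flcn to 0.50 for Rragd, members of the folliculin and Rag GTPase groups. Other probe sets differed: Flcn had a second one at 0.07, and the 6 of Seh1l, a subunit of the GATOR complex, ran from -0.40 to 0.87. Among amino acid and peptide carriers of other families, 7 of 12 on the array were measured. Slc15a3, a lysosomal histidine and peptide carrier of immune cells, had 386 in L-Lpcat3 KO liver and 141 in control liver, a log2 ratio of 1.45. Slc16a10, the carrier of aromatic amino acids, had 754 in L-Lpcat3 KO liver and 1087 in control liver, a log2 ratio of -0.53. Over 3 measured probe sets it ran up to 0.37, in the other direction. Ctns, the lysosomal cystine exporter, had a log2 ratio of -0.42.

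**Figure D4:**
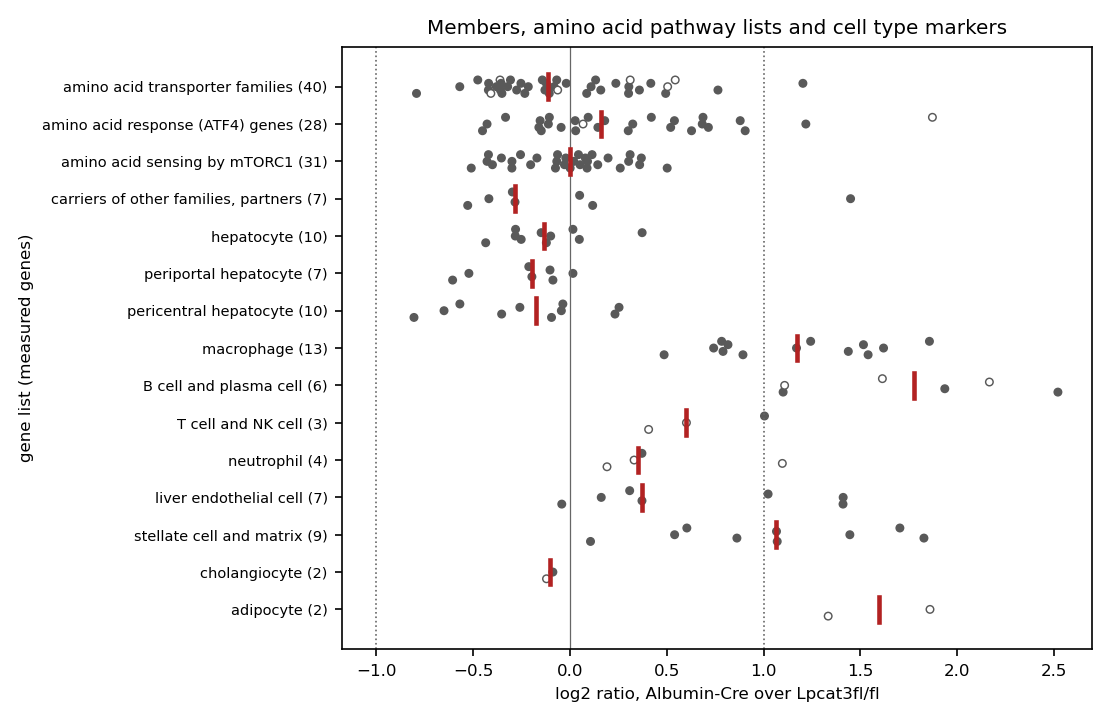
Log2 ratio between L-Lpcat3 KO and control arrays (horizontal axis) of each measured gene in the members, in 3 amino acid pathway lists and in the liver cell type marker lists, with the number of measured genes in brackets. Open points have 1 side below the floor, red bars are medians and dotted lines mark 2-fold. The members centre at -0.11, the ATF4 list at 0.16 and the mTORC1 list at 0.00, and the macrophage list at 1.17.

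The 23 member genes that did not reach the floor on either array had signals of at most 82.0. Besides those named above they include carriers of kidney, gut and brain such as Slc6a19, Slc6a20a, Slc6a20b, Slc36a2 and Slc6a11. For these genes the arrays give no order between the genotypes. The 6 genes with 1 side below the floor (Slc6a5, Slc7a10 and Slc6a16, above it only in L-Lpcat3 KO liver, and Slc6a21, Slc6a4 and Slc36a3, above it only in control liver) had bounds between -0.41 and 0.54, so whether they differ by 1.5-fold cannot be read from these values. With values below the floor kept as deposited, Slc6a16 and Slc36a3 were past 2-fold, in opposite directions. Slc7a6os, which lies next to the unmeasured Slc7a6 on chromosome 8, had 267 in L-Lpcat3 KO liver and 371 in control liver, a log2 ratio of -0.48.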

How the data were processed

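RNA was isolated with Trizol and hybridised to 2 Affymetrix mouse arrays, each a pool of 5 livers. The deposited unit is linear signal intensity, made by the authors with MAS5 (no version given in the sources used here) and analysed by them in GenespringGX. With the top and bottom 2% of probe sets left out, the mean was 500 on each array, as global scaling gives, and the median signal was 90.0 on the L-Lpcat3 KO array and 83.1 on the control array. Such scaling takes most transcripts to be equal, and low intensities are noisiest. Detection calls were not used here.

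Of 45101 probe sets, 34945 had 1 gene symbol in the platform annotation, 932 had several and were left out (1 of them with a member's symbol), and 9211 had no symbol here; the 64 excluded controls include 51 of these. Symbols were updated by gene identifier to RefSeq GRCm38.p6, in which 18031 of 18193 genes and all 63 members matched. The floor, representative probe set and fold thresholds (2-fold and 1.5-fold) are as given with the results. No p-value was computed, since there was 1 array per genotype. Values of both arrays are given for members past 1.5-fold, for the brightest of each family and for the 10 of highest mean signal. They are also given for members whose probe sets disagree with 1 past 1.5-fold. Every other member may also be named, and of each list up to 4 genes of largest log2 ratio. Further list genes in the text (Asns, Atf4, Chac1, Ddit3, Sesn2, Cth, Trib3, Seh1l, Glul, Alb) were picked with their values in view. The members and the 14 gene lists were chosen with earlier results of these data known, so no list is independent evidence. Counting at 2-fold was tested on simulated data in which the changed genes lay well above the floor. The 1.5-fold threshold and changed genes near the floor were not covered. The software was Python 3.11.15 with pandas 2.3.3, numpy 2.4.6, statsmodels 0.14.6, matplotlib 3.10.9 and scipy 1.17.1.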

Additional observations from a re-analysis of the deposited data

How the results depend on the processing

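The counts of members past a fold depended on how low signals were treated and not on the scaling. In the order 2-fold higher, 2-fold lower, 1.5-fold higher and 1.5-fold lower, they were 1, 0, 2 and 1 as reported and were the same genes after median centring, quantile normalization, lowess centring, averaging probe sets and dropping probe sets of less certain match (suffix _x_at or _s_at). With the floor at the 25th percentile (25.5, 57 members measured) they were 3, 3, 6 and 5. With the floor at the 75th percentile (405, 19 members measured) the 2-fold higher count was 0 and the 1.5-fold higher count 1, since Slc1a5 lies below that floor. With values below the floor kept they were 2, 1, 4 and 2, the added genes being Slc6a16, Slc6a5 and Slc36a3. Over all measured genes the shares were then 5.32%, 1.97%, 12.4% and 5.60%. With a pseudocount of 32 in place of the floor the 1.5-fold higher count was 3 and the 1.5-fold lower count 2, adding Slc6a16 and Slc36a3. Of 159 values of 18 named members, 157 kept their sign, but many were bound to. Either other floor, keeping low values and dropping _x_at and _s_at probe sets left the representative signals of these members untouched. Only averaging brought in their other probe sets. It turned Slc6a8 to 0.34 and Slc7a4 to 0.23, and moved Slc6a6 to -0.05 and Slc7a2 to -0.12. Averaging probe sets also left 21 of 40 members below 0. The median of the members, -0.11 as reported, ran from -0.22 at the 75th percentile floor to -0.04 with probe sets averaged. Signal over background limits all genes near the floor, Slc1a5 among them. No paired analysis was possible because each genotype has 1 array.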
